A study of Mus musculus with 5 samples.

Results

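The mitochondrial genome carries 37 genes, and these are the transcripts described here: 13 protein genes, 2 ribosomal RNA genes and 22 transfer RNA genes. They were chosen as every gene whose mouse symbol starts with mt-, which gave 37 of the 51912 genes in the deposited tables. All 5 libraries came from flash-frozen tissue of male mice, labelled dorsolateral prostate, and the mice were 7 months old. Every mouse was Ghr flox/flox and hemizygous for the SV40 T antigen, an oncogene, under the C3(1) promoter. Every mouse also received tamoxifen at 250 mg/kg daily for 5 days, with tissue taken 1 month after the last dose. For the 2 tamoxifen controls the labels list no further allele, and the 3 Ghr deletion mice also had the tamoxifen-activated recombinase Cre-ERT2 at ROSA26, so Cre and the loss of Ghr, the growth hormone receptor gene, cannot be told apart. Fewer cells of a type and less RNA per cell cannot be told apart either in such bulk tissue. Total RNA was sequenced.

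Mitochondrial DNA is transcribed from both strands as long precursors that are cut into ribosomal, messenger and transfer RNAs. The protein genes encode subunits of the respiratory chain and of ATP synthase, which are assembled with many nuclear-encoded subunits, and the ribosomal and transfer RNAs serve protein synthesis inside the organelle. Prostate epithelium is known for secreting citrate made in its mitochondria. Pieces of mitochondrial DNA have also been copied into the nuclear genome during evolution, and such copies can be nearly identical to the original.

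Where 5 values follow each other, they are those of control replicates 1 and 2, against those of deletion replicates 1, 2 and 3. Total counts were 47656216 and 13812483, against 28536656, 37910328 and 33414080. The 7 prostate markers looked up together had 2179 counts per 1000000 counts (CPM) in control replicate 1 and 1.83 to 19.3 in the other libraries, so most libraries nearly lacked the markers of the labelled tissue. Seminal vesicle genes took 35.6% and 2.78% of counts in controls, against 27.4%, 28.7% and 1.43% after deletion. The 7SL RNA genes, which encode the RNA of the signal recognition particle, took 21.8% and 7.25%, against 10.5%, 5.78% and 2.03%. Ghr, the targeted gene, had 14.4 and 31.2 CPM scaled by edgeR's TMM factors (which discount a few dominant genes) in controls, against 8.12, 20.9 and 12.1 after deletion, and the ranges overlapped. This count covers the whole gene and does not single out the deleted part.

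Together the 37 genes took 9.13% and 7.31% of all counts in controls, against 5.45%, 5.72% and 9.14% after deletion. The 2 ribosomal RNA genes held most of this. Their share was 8.05% and 5.97% in controls, against 4.23%, 4.36% and 7.49% after deletion, or 7.01 ± 1.47% (SD, n = 2) against 5.36 ± 1.85% (SD, n = 3). Control replicate 1 and deletion replicate 3 were the high libraries, and the groups overlapped. The 13 protein genes took 1.08% and 1.34% in controls, against 1.22%, 1.36% and 1.65% after deletion, or 1.21 ± 0.185% against 1.41 ± 0.219%. These groups overlapped too, and each difference was smaller than the larger of the 2 SDs. The 95% Wilson intervals of these shares reached at most 0.0137 percentage points to either side and cover counting error only.

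**Figure D1:**
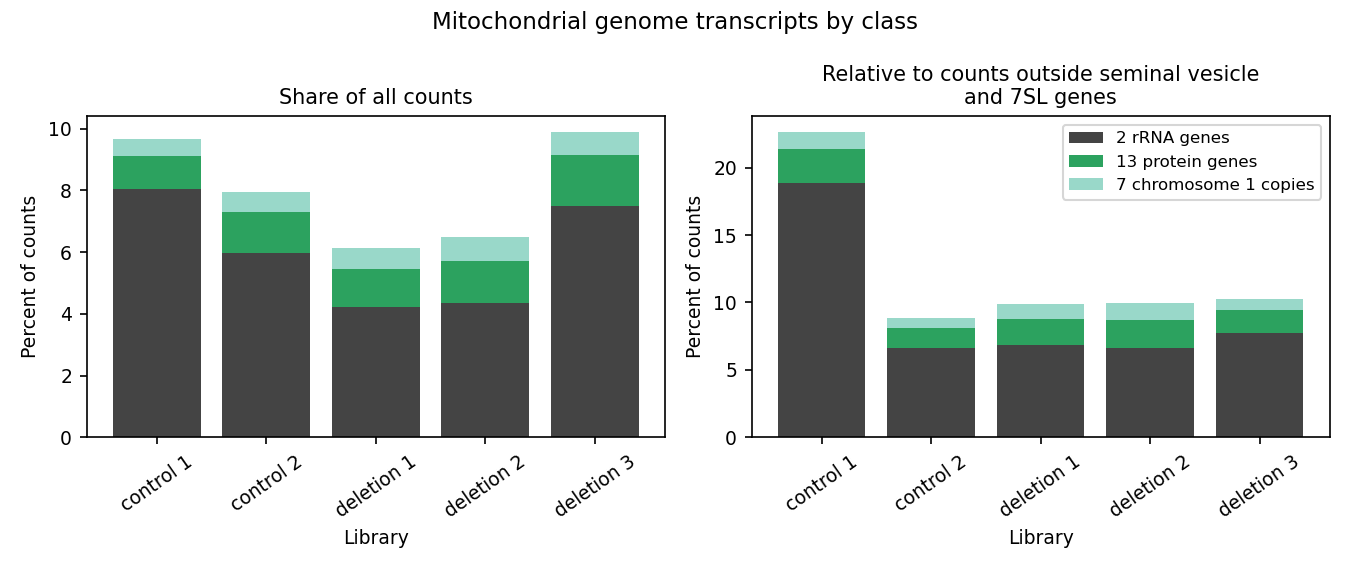
Stacked bars give, for each library, the percent of counts in the 2 ribosomal RNA genes, the 13 protein genes and 7 near-identical chromosome 1 copies, over all counts (left) and over counts outside seminal vesicle and 7SL genes (right; the axes differ in range). On the right, the ribosomal RNA part was 18.9% in control replicate 1 and 6.63% to 7.76% in the other 4 libraries.

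The picture depended on what else was in the library. Over counts outside the seminal vesicle and 7SL genes, the ribosomal RNA share was 18.9% and 6.63% in controls, against 6.81%, 6.66% and 7.76% after deletion. The protein share on that basis was 2.53% and 1.49% against 1.97%, 2.07% and 1.71%. Control replicate 1, the library with the highest seminal vesicle and 7SL shares, then stood highest in both classes. The other 4 libraries lay close together for ribosomal RNA, but for the protein genes they ranged from 1.49% to 2.07%. The 7 skeletal muscle markers, genes of a tissue rich in mitochondria, summed to 16.4 and 10.3 CPM, against 67.8, 3.41 and 13.5, and the 2 brown adipocyte markers to at most 0.389 CPM. Whether the tissue content of control replicate 1 had a part in its high mitochondrial shares was not tested.

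Some nuclear genes held sequence almost the same as a mitochondrial gene, and their counts are needed to read the protein genes. BLAST of the 37 transcripts against all annotated transcripts (GENCODE M21, GRCm38) found 7 unprocessed pseudogenes at 99% identity or more over at least 200 bases. All lie side by side on the minus strand of chromosome 1, within chr1:24611535-24616197, a stretch of 4663 bases. In the order of the mitochondrial genome they are Gm29216 (a copy of part of mt-Co1), Gm28661 (mt-Co2), Gm10925 (mt-Atp6), Gm28437 (mt-Co3), Gm28438 (mt-Nd3), Gm10222 (mt-Nd4l) and Gm28439 (part of mt-Nd4). Of the 7 pairs, 5 had no differing base over the whole copy. Another 14 nuclear genes aligned over 100 bases or more at 81.6% to 97.6% identity, and the highest count of any of them in a library was 15.04.

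The ends of mt-Co2 and mt-Co3 are shown beside their copies because the capitals, which mark the bases past the end of the annotated copy, are all that separates the annotated sequences. The stretches are chrM:7637-7696 and chrM:9331-9390 on the plus strand, and chr1:24614885-24614941 and chr1:24613189-24613247 on the minus strand (GRCm38, sequences from GENCODE M21).
mt-Co2: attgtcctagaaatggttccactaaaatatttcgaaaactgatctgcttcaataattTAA
Gm28661: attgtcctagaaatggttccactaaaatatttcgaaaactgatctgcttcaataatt
mt-Co3: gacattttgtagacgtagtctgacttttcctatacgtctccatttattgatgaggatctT
Gm28437: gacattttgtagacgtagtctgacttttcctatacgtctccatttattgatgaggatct

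The other 2 pairs did differ, and the first 40 bases of each copy are shown with the differing bases in capitals. Between mt-Nd3 and Gm28438 the 1 substitution was T3C, and between mt-Co1 and Gm29216 there were 6, T1056A, C1057T, A1059G, A1060G, C1062A and A1066T, all within the first 13 bases of the copy. Positions count from 1 at the first base of the mitochondrial gene. The stretches are chrM:9459-9498, chr1:24613080-24613119, chrM:6381-6420 and chr1:24616158-24616197.
mt-Nd3: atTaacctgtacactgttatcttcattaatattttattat
Gm28438: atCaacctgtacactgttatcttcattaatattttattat
mt-Co1: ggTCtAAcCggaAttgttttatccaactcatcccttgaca
Gm29216: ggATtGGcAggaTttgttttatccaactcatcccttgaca

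The deposited counts of these pairs were split between gene and copy. In 30 pair and library values with a count for the copy, the mitochondrial gene's expected count was not whole in any, and the sum of gene and copy was whole, within 0.02, in 27. An expected count is a sum of reads that the authors' program RSEM divides among genes when a read matches several. So these reads were placed on both genes, and the files do not tell which one they came from.

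Together the copies took 0.548% and 0.657% of all counts in controls, against 0.673%, 0.790% and 0.770% after deletion, and all deletion libraries lay above both controls, as for 5.19% of single tested genes on this scale. Protein genes and copies together took 1.63% and 2.00%, against 1.90%, 2.15% and 2.42%, and here the groups overlapped. Most mt-Co2 and mt-Co3 counts were listed for the copy. The copy's part of the mt-Co2 pair was 98.7% and 99.5% in controls, against 99.3%, 99.6% and 99.8% after deletion. mt-Co2 itself was left with 1182 and 142 counts in controls, against 430, 444 and 150 after deletion, against 86783, 26793, 59813, 101017 and 82604 for Gm28661. For mt-Co3 the copy's part was 91.0% and 98.1% against 96.7%, 95.2% and 94.6%. For mt-Atp6, a subunit of ATP synthase, it was 43.6% and 61.8% against 63.7%, 62.4% and 63.7%. Control replicate 1 lay far below the other 4 libraries, and all deletion libraries lay above both controls.

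The split was otherwise for the remaining pairs. For mt-Nd4l, a complex I subunit, the copy held 71.5% and 44.0% in controls, against 60.2%, 61.9% and 85.9% after deletion, the widest range among the pairs. For mt-Nd3 it held 2.14% and 6.80% against 8.27%, 11.4% and 11.1%, with all deletion libraries above both controls, as for mt-Atp6. No share over all genes was computed for such splits, and these differences were not tested. For mt-Co1 it held 3.00% and 0.0135% against 2.26%, 3.32% and 1.22%. The copy of mt-Nd4 was listed at 0 in all 5 libraries, although its 876 bases match mt-Nd4 throughout. mt-Nd4 runs 502 bases past its copy, whereas mt-Co2 runs 3 bases and mt-Co3 1 base past theirs. Of all 200-base windows, 57.4% of those in mt-Nd4, 99.4% in mt-Co2, 99.8% in mt-Co3 and 20.8% in mt-Co1 occurred in the copy too. In mt-Atp6, mt-Nd4l and mt-Nd3, each running 3 bases past its copy, 99.4%, 96.9% and 96.0% did. Pairs alike in shared windows were thus split differently.

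**Figure D2:**
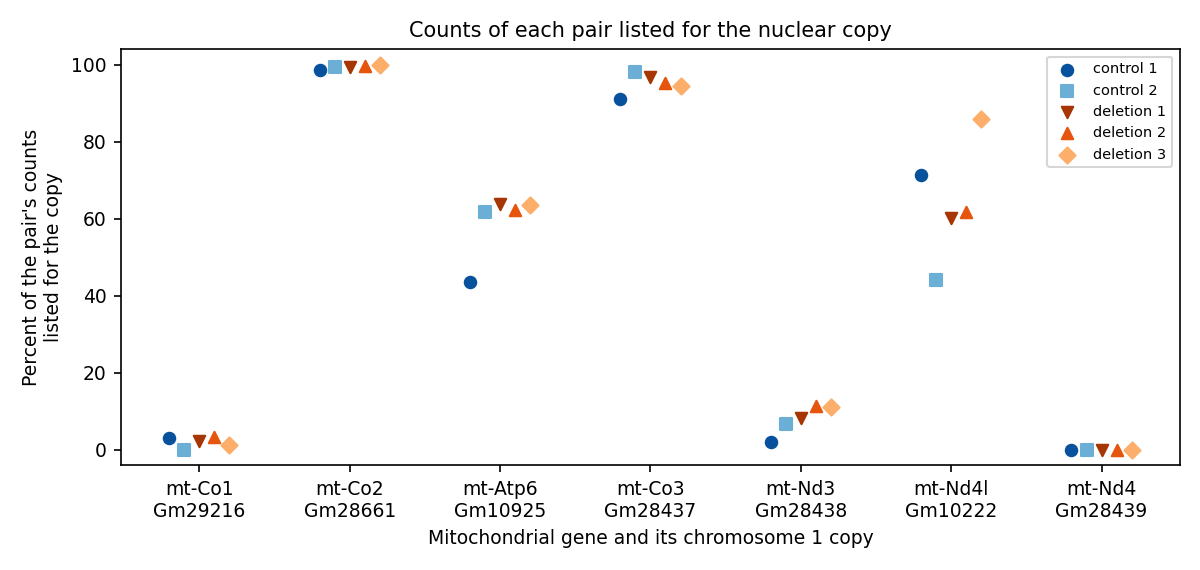
Each point is 1 library and gives the percent of a pair's counts that the deposited table lists for the chromosome 1 copy, with pairs in mitochondrial genome order. Over 90% of the mt-Co2 and mt-Co3 pairs' counts were listed for the copy in every library, and 0% of the mt-Nd4 pair's.

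Adding the copies back changed the levels of the protein genes. Levels were compared per base of gene length within a library, with mt-Co1, the catalytic core of cytochrome oxidase (complex IV), set to 100%. Alone, mt-Co2 stood at 0.0903% to 0.783% of mt-Co1 and mt-Co3 at 1.64% to 8.41%. With the copies added, mt-Co3 stood at 78.3% to 94.9% (median 90.0%) and mt-Co2 at 48.8% to 61.8% (median 56.5%), so the 3 mitochondrial subunits of complex IV were the 3 highest protein genes in all 5 libraries. By full gene length mt-Atp6 came next in all 5, at 22.5% to 27.8%. Such ranks depend on the length used, since a fragment can start at fewer places than a gene has bases. This effective length was 461 to 477 of 681 bases for mt-Atp6, but 22.6 to 26.9 of 204 for mt-Atp8. It was 135 to 147 of 348 for mt-Nd3 and 89.4 to 99.5 of 297 for mt-Nd4l. Ranks by effective length with copies added were not computed.

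Below these the genes formed steps, and neighbours within a step did not separate. mt-Nd1 at 15.4% to 18.8%, mt-Cytb, the mitochondrial subunit of complex III, at 13.9% to 17.4%, and mt-Nd3 at 13.2% to 20.2% exchanged ranks 5 to 7 between libraries. mt-Atp8 at 6.40% to 7.64% and mt-Nd4 at 4.29% to 7.81% shared ranks 8 and 9. mt-Nd5 at 3.44% to 5.56% and mt-Nd2 at 2.54% to 3.67% held ranks 10 and 11 in all 5 libraries, although their ranges over libraries met. By full gene length mt-Nd6 at 1.01% to 2.14% and mt-Nd4l at 0.881% to 1.52% were lowest. All these steps rest on full gene length, which sets short genes such as mt-Atp8, mt-Nd3 and mt-Nd4l lower than effective length does. They are no order of transcript abundance for those genes. All 7 Nd genes encode complex I subunits.

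**Figure D3:**
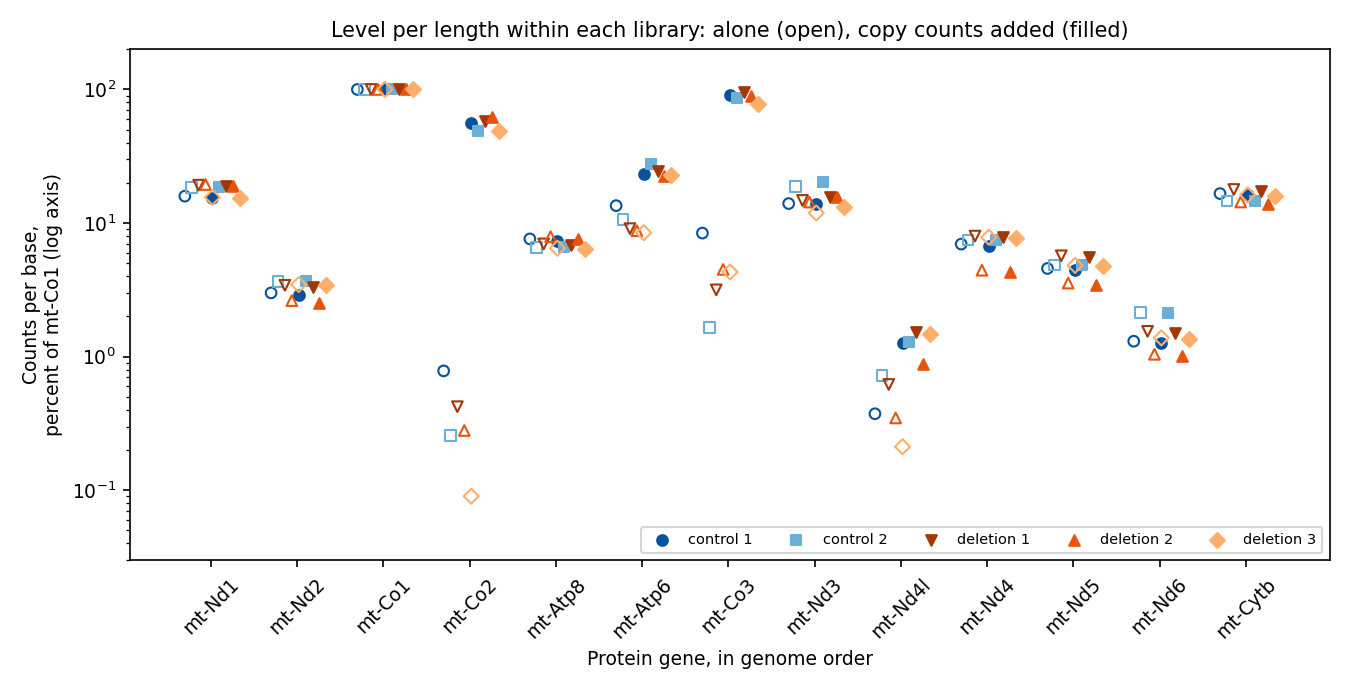
For each protein gene in genome order, counts per base are given as a percent of mt-Co1 in the same library on a log axis, open symbols for the gene alone and filled symbols with its chromosome 1 copy added. mt-Co2 moved from 0.0903% to 0.783% to a range of 48.8% to 61.8% when its copy was added.

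Neighbouring protein genes can overlap on the same RNA and cannot be counted apart there. mt-Atp8 (chrM:7766-7969, plus strand) shares its last 43 bases, in capitals, with mt-Atp6. mt-Nd4l shares its last 7 with mt-Nd4, and its last 60 bases (chrM:10114-10173) are shown.
mt-Atp8: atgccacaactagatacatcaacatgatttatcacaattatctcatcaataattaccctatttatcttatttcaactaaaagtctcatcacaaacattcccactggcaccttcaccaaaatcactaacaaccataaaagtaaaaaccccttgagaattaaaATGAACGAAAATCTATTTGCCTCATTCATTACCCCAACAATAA
mt-Nd4l: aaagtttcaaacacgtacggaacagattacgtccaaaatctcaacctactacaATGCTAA
Although mt-Atp8 and mt-Atp6 lie on 1 messenger RNA, their levels per base differed, with mt-Atp8 at 6.40% to 7.64% and mt-Atp6 at 22.5% to 27.8% of mt-Co1 with copies added. Counted alone, mt-Atp8 stood at 6.48% to 7.91% and mt-Atp6, still the higher, at 8.47% to 13.5%. The tables give mt-Atp8 an effective length (the number of places a fragment can start) of 22.6 to 26.9 bases out of 204, so its authors' TPM, 916 and 2309 in controls, against 1607, 2690 and 4177 after deletion, exceed those of mt-Atp6, at 292 and 608 against 371, 567 and 1024. Both TPM values are of the genes alone, so without copies the order of this pair differed between counts per base and TPM. With its copy, mt-Atp6 had 35968 counts in control replicate 1 for an effective length of 477 bases. mt-Atp8 had 3427 counts for 25.7 bases, so in that library the order depended on the length used with copies too.

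Ribosomal RNA led all classes. mt-Rnr2 (ENSMUSG00000064339, chrM:1094-2675), the 16S RNA of the large mitochondrial ribosomal subunit, had 3426777 and 759507 counts in controls, against 1111344, 1515338 and 2286104 after deletion. That was 71906 and 54987 CPM of all counts against 38944, 39972 and 68417. mt-Rnr1 (ENSMUSG00000064337, chrM:70-1024), the 12S RNA of the small subunit, had 8587 and 4681 CPM of all counts against 3328, 3623 and 6455. Control replicate 1 was highest for both, with deletion replicate 3 second, and deletion replicates 1 and 2 were lowest. Per base, mt-Rnr2 reached 399% to 952% of mt-Co1 (the copy of mt-Co1 added), and mt-Rnr1 59.9% to 188%. The labels name a stranded total RNA kit. How ribosomal RNA was removed is not stated for these libraries, and its part in these levels was not tested.

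Ratios within the mitochondrial RNA do not depend on library scaling. mt-Rnr2 had 8.37 and 11.7 counts per mt-Rnr1 count in controls, against 11.7, 11 and 10.6 after deletion, with control replicate 1 low and the other 4 close together. The group means were 10.1 ± 2.38 (SD, n = 2) and 11.1 ± 0.556 (SD, n = 3), and the log2 difference of 0.16 gave p = 0.7 (two-sided exact permutation test; adjusted p = 0.7 over the 2 ratios tested). With 2 against 3 libraries the smallest possible value is 0.1. Without control replicate 1 the difference was -0.081.

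mt-Nd6 is the 1 protein gene read from the other strand, and mt-Nd5 its neighbour on the plus strand; their ends overlap by 14 bases. mt-Nd6 counts were 8.12% and 12.5% of mt-Nd5 counts in controls, against 7.73%, 8.34% and 8.16% after deletion. Control replicate 2, the library of lowest depth, stood apart, and the remaining 4 libraries lay between 7.73% and 8.34%. The log2 difference was -0.32 (exact permutation p = 0.3, two-sided, adjusted p = 0.6), and it was -0.63 with control replicate 1 left out but -0.0087 with control replicate 2 left out.

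Protein gene counts with copies added came to 20.2% and 33.5% of ribosomal RNA counts in controls, against 44.9%, 49.2% and 32.3% after deletion. Deletion replicate 3 lay just below control replicate 2, so the groups overlapped. The mean fragment length implied by the tables was 205 and 221 bases in controls, against 220, 209 and 207 after deletion.

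**Figure D4:**
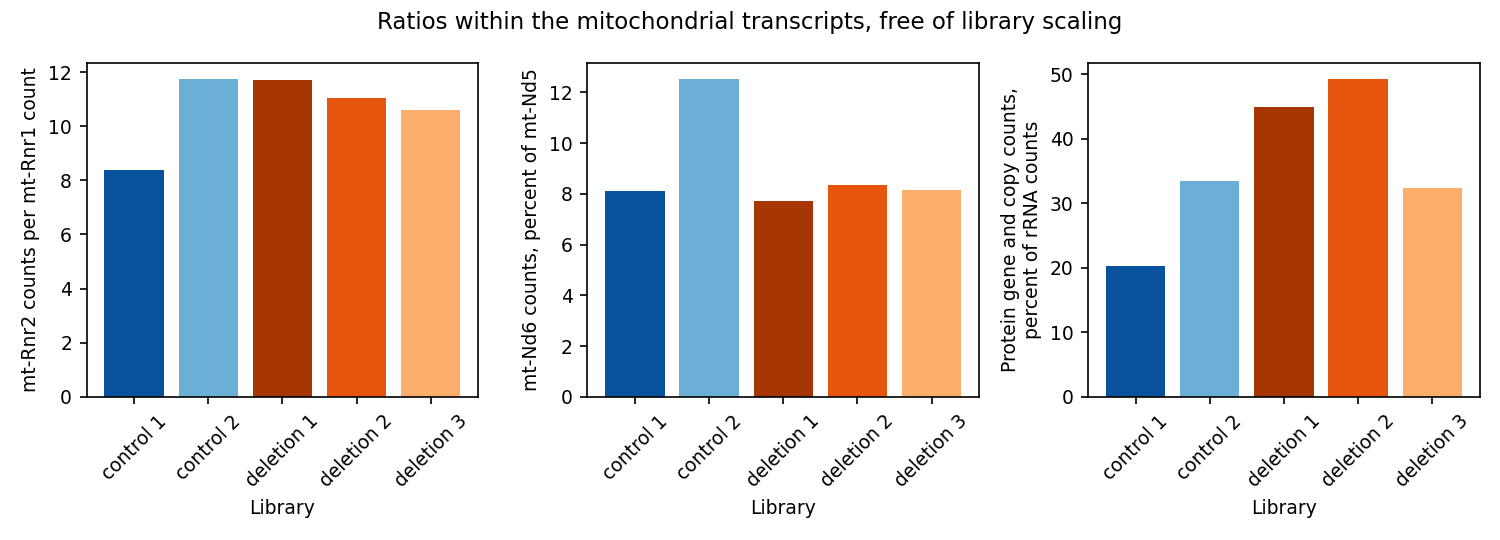
Bars give, per library, mt-Rnr2 counts per mt-Rnr1 count, mt-Nd6 counts as a percent of mt-Nd5, and protein gene counts with copies as a percent of ribosomal RNA counts. Control replicate 1 was lowest in the first and last panels (8.37 and 20.2%) and control replicate 2 highest in the middle one (12.5%).

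The tables do not measure the transfer RNA genes. Of the 22, 21 had 0 counts in all 5 libraries, and mt-Tn, the asparagine transfer RNA, had 1 count in deletion replicate 3. Its sequence and that of mt-Ts2, the shortest of the set, are shown for their size (chrM:5089-5159, minus strand, and chrM:11613-11671, plus strand).
mt-Tn: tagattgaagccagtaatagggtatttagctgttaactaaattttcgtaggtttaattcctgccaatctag
mt-Ts2: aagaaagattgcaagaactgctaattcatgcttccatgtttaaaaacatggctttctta
The 22 genes are 59 to 75 bases long, and the tables give every one of them an effective length of 0. The same held for all 1027 genes of 75 bases or less, of which 13 had a count in any library. A count of 3, the limit that 0 allows, stood for 0.0630 and 0.217 CPM in controls, against 0.105, 0.0791 and 0.0898 after deletion, and it limits counted fragments, not transfer RNA in the tissue. No difference between groups can be read for this class.

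The comparison asks whether mitochondrial transcripts differed between Ghr deletion mice and tamoxifen controls. The 13 protein and 2 ribosomal RNA genes passed the filter on low counts, and 0 of these 15 passed the test (edgeR's quasi-likelihood model; p after Benjamini-Hochberg adjustment 0.995 to 0.998), where 0 of 18615 genes did (0% of those tested). At an unadjusted p under 0.05 there were 0 members and 915 genes (4.92%). DESeq2 called 0 members and 164 genes (0.881%). With the TMM scaling all 15 point estimates were below 0 in the deletion libraries, with a median log2 fold change of -0.38 for the protein genes beside 0.0045 over all tested genes. Scaled by total count alone, 8 protein genes were above 0 and 5 below, with a median of 0.15 beside 0.23 over all genes. Relative to the median of all genes, 13 of the 13 protein genes lay below it with TMM and 9 of the 13 with total count scaling.

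**Figure D5:**
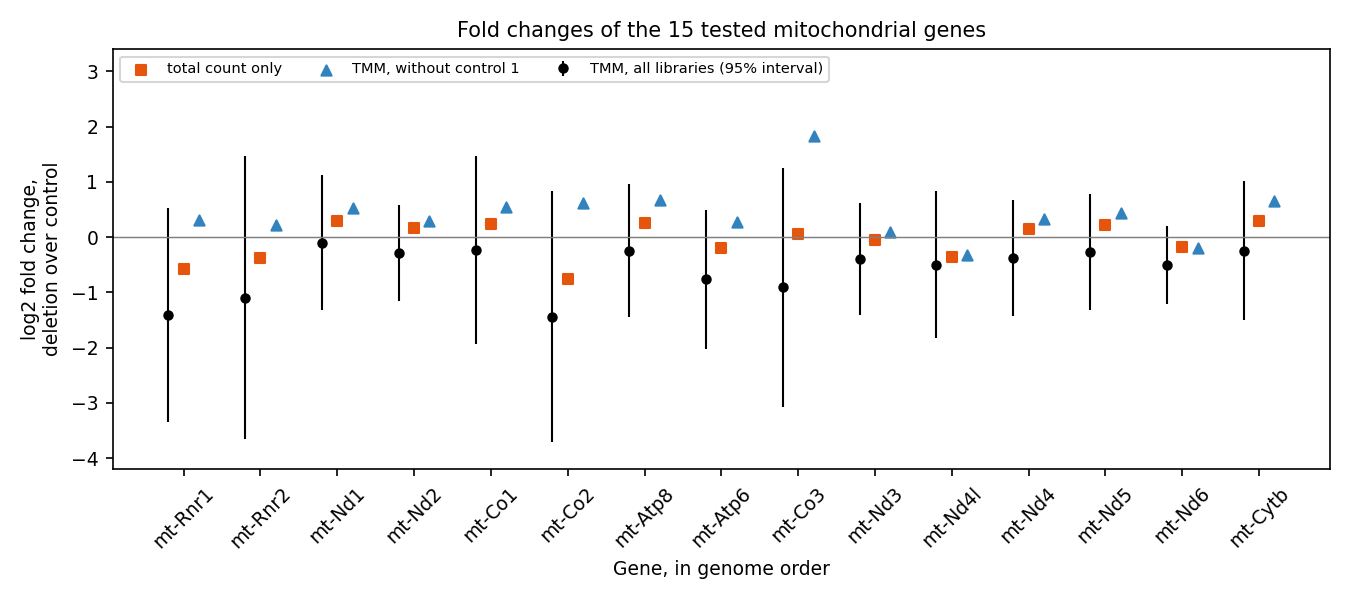
Log2 fold changes of deletion over control for the 15 tested genes: circles with TMM scaling and 95% intervals, squares with total count scaling, triangles with TMM scaling and without control replicate 1. All 15 intervals span 0, and without control replicate 1 13 of the 15 estimates lay above 0.

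Leaving out control replicate 1 turned the sign of 13 of the 15 estimates. On the TMM scale mt-Co1 had 14578 and 6028 CPM in controls, against 8049, 11217 and 6978 after deletion, which is -0.24 (SE 0.712) as a log2 fold change. On the scale of all counts it had 7156 and 9022 CPM against 8054, 9454 and 11260, so the same library was highest on 1 scale and lowest on the other. mt-Rnr2 read 146483 and 36738 TMM-scaled CPM against 38919, 47423 and 42398, a log2 fold change of -1.09 (SE 1.07, 95% interval -3.65 to 1.46). mt-Rnr1 read 17493 and 3128 against 3326, 4298 and 4000, at -1.41 (SE 0.812). For both ribosomal RNAs, control replicate 2 lay below all deletion libraries. Without control replicate 1 their fold changes were 0.22 and 0.31, and the median of the protein genes was 0.44, beside 0.053 over all genes.

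Adding the copies narrowed the spread between protein genes. Counted alone, mt-Co2 had the lowest log2 fold change of the 13, -1.44 (SE 0.944), followed by mt-Co3 at -0.91 (SE 0.900) and mt-Atp6 at -0.76 (SE 0.526). With copies added these were -0.16, -0.25 and -0.31. All 13 protein genes then lay between -0.50 and -0.098, where they had spanned -1.44 to -0.098. The choice to add copies was made after the counts had been seen, and it left 0 members past the test.

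By role, the complex IV genes with copies added read as follows on the scale of all counts. mt-Co1 had 7377 and 9024 CPM in controls, against 8240, 9779 and 11398 after deletion. mt-Co2 had 1846 and 1950 against 2111, 2676 and 2477. mt-Co3 had 3393 and 3986 against 3969, 4467 and 4531. Only for mt-Co2 did all deletion libraries of these 3 lie above both controls; over all tested genes 5.19% did so on this scale.

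ATP synthase genes overlapped between groups with copies added. mt-Atp6 had 755 and 1104 CPM of all counts in controls, against 889, 970 and 1157 after deletion. mt-Atp8 had 71.9 and 78.6 against 74.3, 98.7 and 96.4. Counted without its copy, mt-Atp6 had 426 and 421.6 against 322, 365 and 420, with all deletion libraries lower, as 2.69% of tested genes had, so its grouping depended on the copy.

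mt-Cytb, which has no near-identical copy, had 881 and 980 CPM of all counts in controls, against 1064, 1006 and 1353 after deletion. All deletion libraries were higher on this scale, as for 5.19% of tested genes. The log2 fold change with total count scaling was 0.29, beside a median of 0.23 over all genes. TMM-scaled, it read 1794 and 655 against 1063, 1194 and 839, which overlapped, at -0.25 (SE 0.527).

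Complex I genes overlapped between groups on the scale of all counts. mt-Nd1, the first protein gene after the ribosomal RNAs, had 705 and 1035 CPM against 959, 1138 and 1086. mt-Nd2 had 144 and 223 against 185.2, 167 and 262. mt-Nd3 with its copy had 230 and 410 against 292, 345 and 339. Control replicate 1 was the lowest library for each of these 3.

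For mt-Nd4, mt-Nd4l and mt-Nd5, further along the genome, deletion replicate 3 was highest with copies added. The same held for mt-Nd2, mt-Co1, mt-Co3, mt-Atp6 and mt-Cytb, whereas for mt-Nd6 control replicate 2 was highest. mt-Nd4 had 444 and 600 CPM of all counts in controls, against 574, 374 and 787 after deletion. mt-Nd4l with its copy had 18.0 and 22.3 against 24.1, 16.6 and 32.6. mt-Nd5 had 386 and 517 against 541, 397 and 640. Deletion replicate 3 was highest and a deletion or control library lowest in turn, with no separation of the groups.

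mt-Nd6 was the 1 member whose groups did not overlap on the TMM scale, with 63.9 and 43.3 CPM in controls, against 41.8, 39.2 and 32.4 after deletion. All deletion libraries were lower, as in 10.2% of tested genes. By edgeR this came to -0.50 on the log2 scale, with an SE of 0.295, a 95% interval from -1.21 to 0.20 and an adjusted p = 0.995. Leaving out control replicate 1 gave -0.19, and leaving out control replicate 2 gave -0.76. On the scale of all counts it read 31.4 and 64.8 against 41.8, 33.1 and 52.3, which overlapped.

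The nuclear genes that transcribe, process and copy mitochondrial DNA were not called, and with TMM scaling their point estimates lay on both sides of 0. The lists were matched by symbol, with 0 called by edgeR and 0 by DESeq2 in any. Of 12 transcription genes, 6 were higher and 6 lower by point estimate (median log2 fold change -0.016). Of 22 genes of RNA processing and stability 11 were higher and 11 lower (median 0.047), and of 19 RNA modification genes 7 were higher and 12 lower (median -0.12). Of 12 DNA replication genes 8 were higher and 4 lower (median 0.20), and of 8 biogenesis regulators 6 were higher and 2 lower (median 0.10). Scaled by total count, where the median of all genes stood at 0.23, 9 of 12, 20 of 22, 12 of 19, 11 of 12 and 6 of 8 were higher, with medians of 0.28, 0.21, 0.17, 0.37 and 0.37.

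Polrmt, the mitochondrial RNA polymerase, had 7.14 and 4.45 TMM-scaled CPM in controls, against 5.85, 2.41 and 3.43 after deletion. Tfam, which packages mitochondrial DNA and starts transcription, had 15.6 and 21.8 against 22.7, 26.3 and 21.4. Lrpprc, which stabilises mitochondrial messenger RNAs, had 32.0 and 57.1 against 53.1, 46.6 and 54.2. Groups overlapped for all 3 genes, and their log2 fold changes were -0.57 (SE 0.529), 0.33 (SE 0.304) and 0.20 (SE 0.327). Leaving out 1 library moved Polrmt between -0.97 (without deletion replicate 1) and -0.19 (without control replicate 1). It moved Tfam between 0.11 and 0.59, and Lrpprc between -0.16 and 0.68, each time with control replicate 1 and control replicate 2 as the library left out.

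Among genes of these 5 lists whose groups did not overlap on the TMM scale, those of smallest p are given. Pprc1, a coactivator of mitochondrial biogenesis genes, had 28.0 and 19.9 CPM in controls, against 12.7, 7.64 and 14.2 after deletion (-1.06 on the log2 scale, SE 0.378; edgeR, adjusted p = 0.991). Fastkd1, of a family of mitochondrial RNA-binding proteins, had 19.5 and 15 against 12.0, 10.2 and 12.2. Mterf3, a mitochondrial transcription factor, had 11.2 and 14 against 16.0, 16.0 and 16.7, and Ptcd3, a mitochondrial ribosomal protein, 23.7 and 27.5 against 30.5, 29.4 and 31.0. None of these passed, and groups separated on this scale for 9.43% of all tested genes on the higher and 10.2% on the lower side. On the scale of all counts the groups overlapped for Pprc1, Fastkd1, Mterf3 and Ptcd3 alike.

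Nuclear genes for subunits of the respiratory chain and ATP synthase were set beside the mitochondrial ones. They came from a chosen list of 27 symbols, of which 22 matched. The list includes Sdha and Sdhb of complex II, to which none of the 13 mitochondrial protein genes belongs. Of 22 tested, 20 were higher and 2 lower by point estimate with TMM scaling, with a median log2 fold change of 0.27. The mitochondrial protein genes stood at -0.38 alone and at -0.27 with copies added. Scaled by total count, 22 of the 22 were higher, with a median of 0.37. On that scale the median was 0.15 for the mitochondrial protein genes alone and 0.23 over all genes. None of the 22 was called by edgeR or DESeq2. Their summed level was 778 and 2582 CPM of all counts in controls, against 1921, 2061 and 2534 after deletion, lowest in control replicate 1. With control replicate 1 left out, the mitochondrial protein genes had a median of 0.44, and no such median was computed for the nuclear subunits. The difference between both sets was not tested.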

How the data were processed

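NucleoSpin extraction and a stranded TruSeq total RNA library kit are given per the labels' protocols. Per the submitters' processing notes, the tools were RSEM 1.3.0, STAR 2.5.3a and bcl2fastq 2.20.422, with GRCm38 as build. The sources used here do not give annotation release, strand setting or depletion step. Per the file headers, the authors deposited per library RSEM expected counts, which are not normalized, TPM, which are relative to effective length and all genes of the library, and FPKM, which were not used.

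Symbols, positions and sequences came from GENCODE M21 (51633 of 51912 IDs present). Expected counts were rounded for tests. All 5 libraries were fitted with edgeR 4.0.16 (R 4.3.3): filterByExpr (18615 genes kept), TMM, robust glmQLFit, glmQLFTest with group as the only term, calls at a Benjamini-Hochberg adjusted p under 0.05. TMM factors were 0.491 and 1.50 for controls, against 1.00, 0.843 and 1.61 after deletion. DESeq2 1.42.0 was an alternative. Nuclear copies were found with BLAST 2.17.0 (99% identity, 200 aligned bases). The labels give each group's libraries as biological replicates.

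By the rule used, all members are accounted for by class, with both ribosomal RNA and all protein genes per library. From the nuclear lists Polrmt, Tfam, Lrpprc and, per direction, the 2 non-overlapping genes of smallest p are named. The members and lists were chosen with earlier results of these data known. The copies were chosen after their counts were seen. Alternatives covered scaling, filter, tool, replicate block, denominators, TPM and left-out libraries.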

Additional observations from a re-analysis of the deposited data

How the results depend on the processing

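With 2 controls and TMM factors from 0.491 to 1.61, the spread between libraries limits the precision. The part of sequencing depth was not tested. Mitochondrial genes called stayed at 0 under every alternative run. Genes called over all genes were 0 under edgeR with TMM, 46 with total count scaling (17 higher, 29 lower), 164 with DESeq2 (36 higher, 128 lower), 0 to 48 with 1 library left out (48 leaving out control replicate 2, 2 leaving out deletion replicate 3). With both control replicate 1 and deletion replicate 3 left out there were 85. That last setting, like adding the copies, was chosen after seeing the data. The replicate block gave 8 calls. Same-numbered libraries come from different mice. Their deviations from the group means correlated at 0.13 and -0.14. With 2 controls, the control deviations are equal and opposite by construction, so these values cannot show whether the numbers pair anything. The median log2 fold change of the protein genes, -0.38, was 0.15 with total count scaling, -0.13 with the replicate block, -0.76 to 0.44 with 1 library left out and 0.55 without both libraries. The log2 ratio of protein shares, 0.22, was -0.069 outside seminal vesicle and 7SL genes, 0.83 over TPM, 0.072 to 0.38 with 1 library left out and -0.057 without both. The ribosomal RNA ratio, -0.39, was -0.85 outside those genes, 0.50 over TPM and -0.71 to -0.16 with 1 library left out. The transfer RNA ratio could not be computed, since both controls had 0 counts. The mt-Rnr2 to mt-Rnr1 difference, 0.16, ranged from -0.081 to 0.41 with 1 library left out and was -0.048 without both. The cause of these moves was not tested.

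Total count scaling, which put the median of all genes at 0.23, put 8 genes above 0, of which 4 lay above that median: mt-Nd1 0.29, mt-Nd2 0.16, mt-Co1 0.25, mt-Atp8 0.26, mt-Co3 0.049, mt-Nd4 0.15, mt-Nd5 0.22 and mt-Cytb 0.29. The replicate block turned 5: mt-Nd1 0.19, mt-Co1 0.019, mt-Atp8 0.088, mt-Co3 0.036 and mt-Cytb 0.055. Without control replicate 1 and deletion replicate 3 the values were mt-Rnr1 0.28, mt-Rnr2 0.23, mt-Nd1 0.74, mt-Nd2 0.36, mt-Co1 0.67, mt-Co2 1.07, mt-Atp8 0.86, mt-Atp6 0.42, mt-Co3 1.93, mt-Nd3 0.30, mt-Nd4l 0.037, mt-Nd4 0.34, mt-Nd5 0.55, mt-Cytb 0.78 and, for Lrpprc, -0.20, while mt-Nd6 stayed below 0 at -0.098. With 1 library left out, the log2 fold changes of the genes that changed sign ranged as follows: mt-Rnr1 -2.18 to 0.31, mt-Rnr2 -1.77 to 0.22, mt-Nd1 -0.53 to 0.52, mt-Nd2 -0.70 to 0.29, mt-Co1 -0.74 to 0.54, mt-Co2 -2.26 to 0.62, mt-Atp8 -0.81 to 0.67, mt-Atp6 -1.36 to 0.27, mt-Co3 -1.80 to 1.83, mt-Nd3 -0.76 to 0.096, mt-Nd4 -0.85 to 0.32, mt-Nd5 -0.75 to 0.44, mt-Cytb -0.80 to 0.66 and Lrpprc -0.16 to 0.68. For mt-Nd4l, below 0 in each of these 5 fits, the lowest value was -0.84, without deletion replicate 1.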
